A study of Mus musculus with 127 samples.

Results

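Of 113 patched striatal neurons, 10 had Gad1 below 100 CPM (the count of a gene scaled to the total count of the cell) and 103 had 100 CPM or more. The 10 are called low-Gad1 neurons and the 103 high-Gad1 neurons, and together they are all neurons among the 127 cells analysed here, the others being 14 astrocytes. The series text counts 117 neurons, so 4 are not analysed here and every share is over the 113. The sides were selected on the measured CPM of Gad1, so Gad1 is described here and not tested. They are not groups of the study, and cells are not replicates of a condition. The comparison asks what kind of cell lacks Gad1 in a series about inhibitory transmission in a model of Huntington's disease.

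All neurons came from the striatum of newborn C57BL/6 mice and grew on small islands of cortical astrocytes. They carried a lentivirus with exon 1 of human HTT fused to GFP, with a tract of 25 glutamines (25Q) or an expanded tract of 97 (97Q), or an empty vector, and the labels give the genotype of 97Q cells as mutant and that of the others as wild type. RGFP109, which blocks the histone deacetylases HDAC1 and HDAC3, was given at 100 nM from day 6 in vitro and again every 3 days, with DMSO as vehicle on the same days, and cells were drawn into the recording pipette on day 15. With vehicle there were 29 neurons of 25Q, 26 of 97Q and 9 of empty vector, and with RGFP109 there were 23 of 25Q and 26 of 97Q. Every group with a transgene was spread over batches 1, 2 and 3, as the labels number them, and the empty vector neurons and the astrocytes were all in batch 3. The labels name no animal, culture or promoter of the transgene, and a cell is named by its group and number. A library, that of 97Q RGFP109 cell 9, was dominated by genes known from macrophages, and the shares, the Gad2 difference and the main list medians are also given without it.

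Neurons that use GABA make it from glutamate with the enzymes GAD67, encoded by Gad1, and GAD65, encoded by Gad2, and load it into vesicles with the transporter encoded by Slc32a1. Most neurons of the striatum are GABAergic projection neurons, marked by dopamine receptors and peptides such as enkephalin (Penk) or substance P (Tac1). The rest are GABAergic interneurons and cholinergic interneurons, while the cortex beside the striatum supplies glutamatergic neurons, which carry the vesicular transporters Slc17a7 or Slc17a6 in place of Slc32a1.

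The depth of the sides overlapped. Total counts ran from 2119834 to 8842811 (median 3118498) in low-Gad1 and from 999700 to 8480860 (median 4274192) in high-Gad1 neurons. Genes with a count numbered 8279 to 15455 (median 11658) and 6433 to 14599 (median 11891). Mitochondrially encoded transcripts took 1.05 to 20.1% (median 5.40%) and 0.956 to 20.3% (median 3.53%). No low-Gad1 neuron was the shallowest library. With each neuron thinned to 900000 counts the same number, 10, had Gad1 below 100 CPM.

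Gad1 (ENSMUSG00000070880, GRCm38 chromosome 2, 70553072 to 70602014, plus strand) was low but not absent in the 10 neurons. It ran from 5.56 to 59.7 CPM, on 12 to 313 counts, against 104 to 11582 CPM (median 1232) in high-Gad1 neurons. It was 5.56 CPM in 97Q vehicle cell 20, 5.66 in 97Q RGFP109 cell 2, 5.98 in 97Q vehicle cell 10, 11.9 in 97Q vehicle cell 2 and 17.6 in 97Q RGFP109 cell 11. It was 32.7 CPM in 97Q RGFP109 cell 9, 33.4 in 97Q RGFP109 cell 12, 35.4 in 97Q vehicle cell 7, 35.6 in 25Q vehicle cell 10 and 59.7 in 97Q RGFP109 cell 4. All 10 lay above the 14 astrocytes, where Gad1 reached at most 2.45 CPM. Just outside the threshold stood 97Q RGFP109 cell 22 at 104 CPM, 97Q vehicle cell 1 at 140 CPM, 97Q RGFP109 cell 7 at 146 CPM and 97Q RGFP109 cell 23 at 177 CPM. These 4 neighbours were also 97Q neurons, the next was 25Q vehicle cell 13 at 204 CPM, and the sides meet without a wide gap at the threshold.

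Low-Gad1 neurons were mostly 97Q neurons. They made up 4 of 26 neurons of 97Q vehicle (15.4%, exact Clopper-Pearson 95% interval 4.36 to 34.9%), 5 of 26 of 97Q RGFP109 (19.2%, 6.55 to 39.4%) and 1 of 29 of 25Q vehicle (3.45%, 0.0873 to 17.8%). There were 0 of 23 in 25Q RGFP109, which allows a share of up to 14.8%, and 0 of 9 in empty vector, which allows up to 33.6%. Over both treatments this is 9 of 52 97Q neurons (17.3%, 8.23 to 30.3%) and 1 of 52 25Q neurons (1.92%, 0.0487 to 10.3%). Without 97Q RGFP109 cell 9 they were 4 of 25 in 97Q RGFP109 (16.0%, 4.54 to 36.1%) and 8 of 51 over both 97Q groups (15.7%, 7.02 to 28.6%). All intervals and limits here cover counting error only and take the cells as independent draws, although cells share batches and cultures that the labels do not name.

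The batches differed as much as the constructs. Low-Gad1 neurons were 5 of 34 in batch 1, 4 of 15 in batch 2 and 1 of 64 in batch 3 (1.56%, exact Clopper-Pearson 95% interval from 0.0396 to 8.40%). Within batch 1 they were 4 of 16 97Q against 1 of 18 25Q neurons, within batch 2 they were 4 of 7 against 0 of 8, and within batch 3 they were 1 of 29 against 0 of 26. The 97Q share was the higher one in each of the 3 batches, and no test was made, because the batch is the only labelled replicate. In batch 2 the 97Q RGFP109 group had 3 low-Gad1 neurons of 4, and 2 of 3 without 97Q RGFP109 cell 9. Gad1 was also lower in the remaining 97Q neurons, with medians on the high side of 756 CPM in 97Q vehicle and 545 CPM in 97Q RGFP109 against 1426 CPM in 25Q vehicle and 2055 CPM in 25Q RGFP109. The share below 100 CPM is thus the same measure read at its lower end and not separate evidence.

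**Figure D1:**
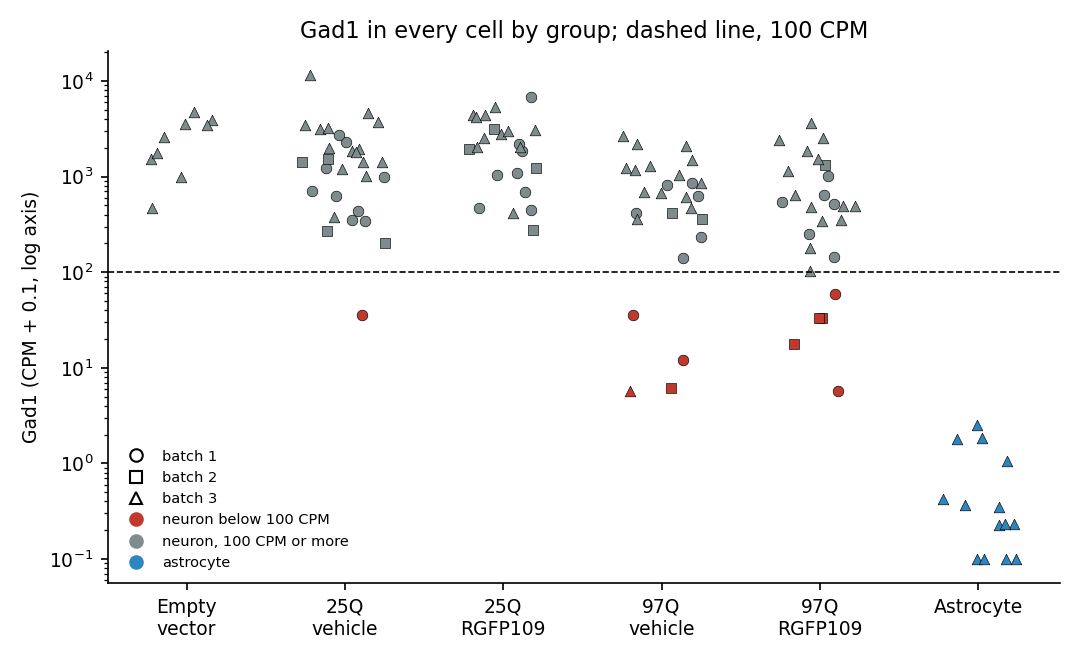
Gad1 in each of the 127 cells (CPM + 0.1, log axis) by group, with the shape of a point giving the batch and the dashed line 100 CPM. The 10 low-Gad1 neurons, in red, sit between 5.56 and 59.7 CPM, 9 of them in the 97Q groups, and above every astrocyte.

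Most low-Gad1 neurons kept the other GABA-making enzyme. Gad2 (ENSMUSG00000026787, chromosome 2, 22622205 to 22693874, plus strand) reached 100 CPM in 7 of 10 low-Gad1 neurons and in 101 of 103 high-Gad1 neurons. It was 874 CPM in 97Q RGFP109 cell 12, 814 in 25Q vehicle cell 10, 585 in 97Q vehicle cell 20, 350 in 97Q vehicle cell 2, 349 in 97Q vehicle cell 10, 136 in 97Q RGFP109 cell 11 and 118 in 97Q vehicle cell 7. In these 7 Gad2 exceeded Gad1, which follows from their choice at 100 CPM for both genes. Their Gad2 lay below the median of high-Gad1 neurons (882 CPM, range 6.11 to 4342) in all 7. The other 3 had 28.8 CPM in 97Q RGFP109 cell 2, 21.3 in 97Q RGFP109 cell 9 and 3.77 in 97Q RGFP109 cell 4, which are still above the highest astrocyte at 0.816 CPM. On the high side, 97Q vehicle cell 21 at 6.11 CPM of Gad2 and 97Q RGFP109 cell 22 at 49.7 CPM were the 2 neurons under 100 CPM.

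**Figure D2:**
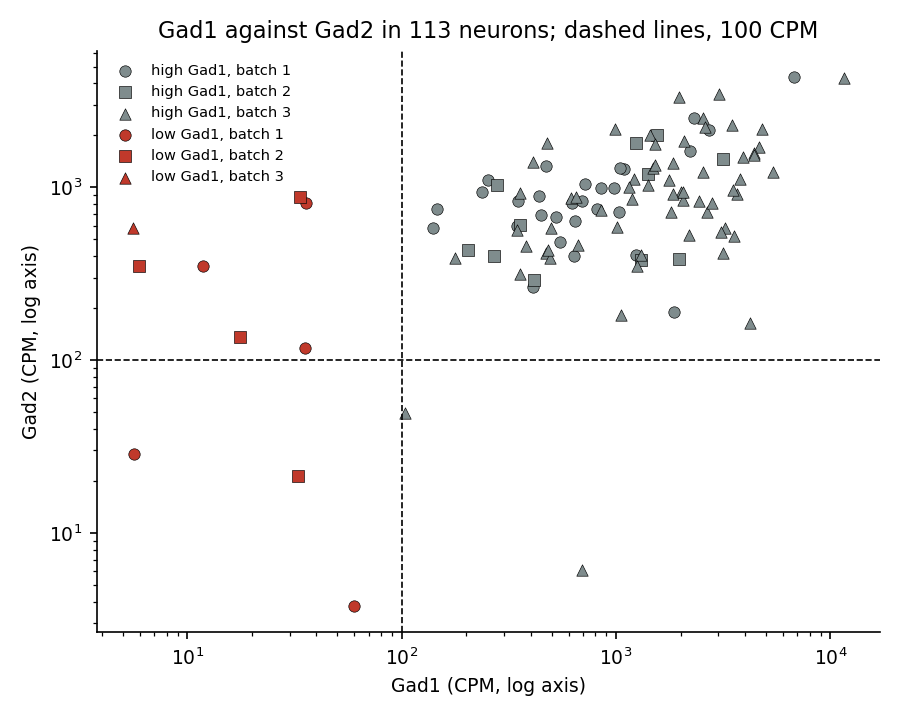
Gad1 against Gad2 in each of the 113 neurons (CPM, both axes log), with red for low-Gad1 and grey for high-Gad1 neurons, shapes for batches and dashed lines at 100 CPM. Left of the Gad1 line 7 red points lie above 100 CPM of Gad2 and 3 below.

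Slc32a1 (ENSMUSG00000037771, chromosome 2, 158610767 to 158615748, plus strand), the vesicular GABA transporter, did not separate the sides. It had a count in 8 of 10 low-Gad1 neurons, with 0 to 36.7 CPM (median 7.04), and in 96 of 103 high-Gad1 neurons, with 0 to 354 CPM (median 11.4). It reached at most 0.130 CPM in astrocytes. The gene shares exon sequence with Gm14205 on the other strand, and it is unknown whether counting used the strand, so its counts are uncertain. Abat, which degrades GABA, ran from 5.83 to 487 CPM in low-Gad1 neurons, around a median of 230 CPM on the high side.

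With Gad1 left out, the other 11 genes of GABA synthesis, packaging and uptake summed to 224 to 2005 CPM (median 878) in low-Gad1 and 546 to 6510 CPM (median 1797) in high-Gad1 neurons. The sum lay below the high-side median in 9 of 10 low-Gad1 neurons. It lay below every high-Gad1 neuron in 2 of them, 97Q RGFP109 cells 9 and 4, so the ranges overlap for the other 8. Astrocytes also express part of this list, Abat among them, and summed to 274 to 1226 CPM with Gad1 included.

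The 3 neurons below 100 CPM in both Gad1 and Gad2 were also those with few neuronal transcripts, as read from pan-neuronal genes only. The summed level of 24 pan-neuronal genes, such as the vesicle fusion protein gene Snap25 and the stathmin gene Stmn2, was 1287 CPM in 97Q RGFP109 cell 9, 2787 in 97Q RGFP109 cell 2 and 3530 in 97Q RGFP109 cell 4. Every high-Gad1 neuron had at least 5116 CPM (median 13105, highest 23992). The other 7 low-Gad1 neurons had 5161 CPM (25Q vehicle cell 10), 7358 CPM (97Q vehicle cell 7) and 10282 to 12718 CPM, within that range but all below its median. Snap25 itself was 93.7 to 3460 CPM in low-Gad1 and 340 to 6156 CPM (median 2327) in high-Gad1 neurons, and Stmn2 71.8 to 3059 against 7.63 to 7798 CPM (median 1851). 97Q RGFP109 cell 2 was not low in every neuronal list. Its glutamate receptor genes summed to 4643 CPM (high-side median 4156) and its projection neuron genes to 1370 CPM (high-side median 1410). Its vesicle release genes summed to 2788 CPM (high-side median 6880) and its GABA-A and glycine receptor genes to 2016 CPM (high-side median 3363). Without the 3 neurons, 6 of 49 97Q neurons (12.2%, 4.63 to 24.8%) and 1 of 52 25Q neurons remained on the low side.

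Astrocyte transcripts were high in 5 low-Gad1 neurons and near the bottom in others. The summed level of 22 astrocyte genes was 11389 CPM in 97Q RGFP109 cell 4, 8619 in 97Q vehicle cell 7, 6242 in 97Q RGFP109 cell 11, 3065 in 25Q vehicle cell 10 and 2705 in 97Q vehicle cell 10. These lie above 2392 CPM, which is the astrocyte median of 23919 CPM divided by 10, as do 17 of 103 high-Gad1 neurons. The other 5 had 34.7 to 991 CPM, with the lowest of all 113 neurons, 97Q vehicle cell 2, among them, against 50.975 to 10652 CPM (median 1188) on the high side. The defining astrocyte genes Aqp4, a water channel, and Gja1, a gap junction protein, stood at 0 in 3 and 4 of the 10, and at 366 and 76.8 CPM in 97Q RGFP109 cell 4. Their part in the low Gad1 was not tested, but without all neurons above 2392 CPM 5 low-Gad1 neurons remained, 5 of 44 97Q (11.4%, 3.79 to 24.6%) and 0 of 39 25Q neurons, which allows up to 9.03%. Without these and the 3 with few neuronal transcripts, 3 of 42 97Q (7.14%, 1.498 to 19.5%) and 0 of 39 25Q neurons remained.

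**Figure D3:**
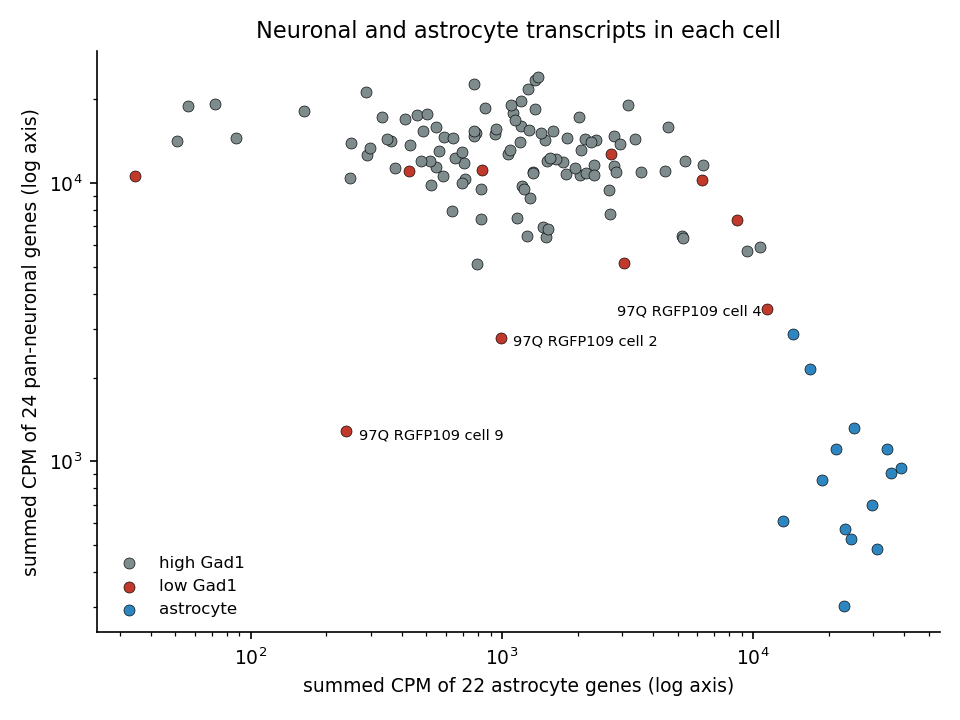
Summed CPM of 24 pan-neuronal genes against that of 22 astrocyte genes in each of the 127 cells, both axes log, with red for low-Gad1 neurons, grey for high-Gad1 neurons and blue for astrocytes. The 3 named red points lie below every grey point on the neuronal axis, and 97Q RGFP109 cell 4 lies closest to the astrocytes.

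No low-Gad1 neuron carried the transporters of a glutamatergic neuron. Slc17a7 and Slc17a6 reached at most 0.339 CPM in the 10 and Slc17a8 was at 0 in all of them, and 10 CPM was passed in 0 of 10 low-Gad1 and 1 of 103 high-Gad1 neurons for each. The glutamatergic list summed to 3.38 to 254 CPM (median 20.6) against 0 to 357 CPM (median 29.9). It was 115 CPM in 97Q vehicle cell 20, 143 in 97Q RGFP109 cell 2, 230 in 97Q vehicle cell 7 and 254 in 97Q RGFP109 cell 4, above 86.4 to 99.0% of high-Gad1 neurons. Astrocytes summed to 93.0 to 580 CPM over the same list. In 97Q vehicle cell 20 it was led by Nrn1, which encodes neuritin, at 107 CPM (high-side maximum 27.3), with the proneural factor gene Neurog2 at 3.59 CPM (high-side maximum 0.183). Its members with the highest mean, Crym and Tcf7l2, reached 116 and 61.3 CPM, above the high-side maxima of 98.4 and 50.6 CPM, in 97Q RGFP109 cell 4 and 97Q RGFP109 cell 2. Tcf7l2 had a median of 69.8 CPM in astrocytes. Passing a high-side maximum was common, as each of the 10 had 223 to 1009 of 53465 genes above every high-Gad1 neuron. It does not by itself mark a kind of cell, here or below.

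The cholinergic list summed to 0 to 400 CPM (median 91.7) in low-Gad1 and 0 to 1252 CPM (median 107) in high-Gad1 neurons, mainly through Ache and Isl1, a transcription factor gene that projection neurons share. Isl1 was 142 CPM in 97Q vehicle cell 2, 127 in 97Q vehicle cell 10, 101 in 97Q vehicle cell 7 and 59.4 in 97Q RGFP109 cell 9, and at most 7.55 CPM in the other 6. Chat, which makes acetylcholine, and its choline transporter Slc5a7 were at 0 in all 10, while Slc18a3, which loads acetylcholine into vesicles, was 66.4 CPM in 97Q RGFP109 cell 12 (high-side maximum 34.9 CPM). Ache, an esterase that other neurons also make, was 390 CPM in 97Q vehicle cell 20, 158 CPM in 97Q RGFP109 cell 12 and 73.1 CPM in 97Q RGFP109 cell 4, within the high-side range of 0 to 1252 CPM, and Zic4 was at 0 in all but 25Q vehicle cell 10 (10.5 CPM). Th, the first enzyme of dopamine synthesis, was 159 CPM in 97Q vehicle cell 20 and at 0 in the other 9, against at most 132 CPM on the high side, where 2 of 103 neurons passed 10 CPM. The dopamine transporter Slc6a3 was at 0 in that cell and its vesicular partner Slc18a2 at 0.980 CPM. Ddc was 227 CPM in 25Q vehicle cell 10, within the high-side range. Slc6a2, from the list of dopaminergic, noradrenergic and serotonergic neurons, was 29.8 CPM in that cell and 5.49 CPM in 97Q RGFP109 cell 4 (high-side maximum 0.590 CPM). The list summed to 0 to 258 CPM (median 11.0) in low-Gad1 and 0 to 494 CPM (median 17.2) in high-Gad1 neurons. The transmitter genes of these 2 paragraphs, other than the list members with the highest mean and those highest in a cell, were chosen after their values were seen.

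Genes of striatal projection neurons were present in several of the 10, each with another pattern. Their 30 genes summed to 264 to 8951 CPM (median 1319) in low-Gad1 and 509 to 14723 CPM (median 1410) in high-Gad1 neurons, so the sides overlapped almost wholly and only 97Q RGFP109 cell 9 was outside. Arpp21 and Arpp19, phosphoproteins of the cAMP pathway, ran from 3.27 to 952 CPM and from 18.4 to 1007 CPM, against medians of 165 and 296 CPM on the high side. 25Q vehicle cell 10 had the enkephalin gene Penk at 5584 CPM (high-side median 0.164, highest 7037), the dopamine receptor gene Drd2 at 188 CPM and the dopamine-regulated phosphoprotein gene Ppp1r1b at 717 CPM. 97Q vehicle cell 10 had Ppp1r1b at 840 CPM with the substance P gene Tac1 at 135 CPM, the dynorphin gene Pdyn at 49.7 CPM, and the transcription factor genes Isl1 and Ebf1 at 127 and 89.4 CPM. Penk was at most 1.02 CPM in the other 9, and Tac1 at most 0.339 CPM, so each of these peptide genes was high in 1 low-Gad1 neuron.

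The other neurons within the high-side range of the pan-neuronal sum carried partial sets, and so did 97Q RGFP109 cell 2, below that range. That cell had Arpp21 at 247 CPM, and Ptprm and Kcnip2 of the same list at 229 and 209 CPM. 97Q RGFP109 cell 12 had the striatal G protein regulator gene Rgs9 at 126 CPM, the G protein subunit gene Gng7 at 455 CPM and Ppp1r1b at 206 CPM. 97Q vehicle cell 2 had the phosphodiesterase gene Pde10a at 332 CPM, the transcription factor genes Foxp2 at 276 CPM and Foxp1 at 256 CPM, and Isl1 at 142 CPM. 97Q vehicle cell 7 had Foxp1 at 153 CPM, Foxp2 at 109 CPM and Isl1 at 101 CPM. 97Q vehicle cell 20 had the retinoid receptor gene Rxrg at 332 CPM and Ebf1 at 78.8 CPM, while 97Q RGFP109 cell 11 had Arpp19 at 1007 CPM and no other projection neuron gene beyond Arpp21 at 221 CPM above 20 CPM. Drd2, Tac1, Pdyn, Ebf1 and Rgs9 were chosen for naming after their values were seen.

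Interneuron genes reached no more than moderate levels in the 10. The highest was Th, which is also on this list, at 159 CPM in 97Q vehicle cell 20 (high-side maximum 132 CPM). The list of 20, of which 19 are in the table, summed to 0.289 to 223 CPM (median 101) against 0 to 5769 CPM (median 143). Calb2, which encodes calretinin, reached at most 3.15 CPM in the 10 against 2889 CPM on the high side, and Reln, which encodes reelin, had a count in 2 of the 10 (25.5 and 0.423 CPM) and in 73 of 103 high-Gad1 neurons. Lamp5 was 155, 127 and 112 CPM in 97Q vehicle cell 10, 97Q RGFP109 cell 2 and 97Q vehicle cell 2. Npy was 89.1 CPM in 25Q vehicle cell 10 and 33.4 and 32.7 CPM in 97Q RGFP109 cell 9 and 97Q vehicle cell 10, and Sst, Kit and Lhx6 stayed below 2 CPM.

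Transcription factors of the GABAergic lineage, which specify these neurons in the embryonic ganglionic eminences, overlapped between the sides. Their 15 genes summed to 75.8 to 1048 CPM (median 218) against 20.9 to 3371 CPM (median 494), with 8 of 10 below the high-side median and 97Q vehicle cell 20 and 25Q vehicle cell 10 above it. Astrocytes had 20.3 to 411 CPM (median 146). Meis2 was 788 CPM in 25Q vehicle cell 10 and 0 to 118 CPM in the other 9, against a high-side median of 204 CPM and an astrocyte median of 111 CPM. The noncoding RNA Dlx6os1 was 435, 241 and 237 CPM in 97Q vehicle cell 20, 97Q vehicle cell 2 and 97Q RGFP109 cell 9 and at most 36.2 CPM in the other 7, around a high-side median of 60.3 CPM. It was at 0 CPM in the median astrocyte. Dlx1 reached 10.2 CPM in 25Q vehicle cell 10 and at most 1.71 CPM elsewhere, against a high-side median of 9.59 CPM.

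Single low-Gad1 neurons stood apart by genes of other cell types. 97Q RGFP109 cell 9 had Spp1 at 106470 CPM, Mmp12 at 101852 CPM and Lyz2 at 60533 CPM, all 3 known as abundant in activated macrophages, where high-Gad1 neurons had at most 828, 63.1 and 426 CPM. Its 50 most abundant genes took 64.1% of its counts (at most 52.7% on the high side). The microglia and macrophage list summed to 950 CPM in it, above the high-side maximum of 470 CPM, with the leukocyte gene Ptprc at 580 CPM and the integrin gene Itgam at 231 CPM, while its astrocyte sum was 239 CPM. The list members with the highest mean, Cd68 and Csf1r, were 45.1 and 26.5 CPM in it, within the high-side range. 25Q vehicle cell 10 held lower levels of the same genes, with Spp1 at 1515 CPM, Lyz2 at 1212 CPM, Mmp12 at 841 CPM and Itgam at 162 CPM beside its Penk, and in the other 8 Spp1 was at most 122 CPM.

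97Q vehicle cell 7 and 97Q RGFP109 cell 4 were high in contractile and glial genes. The smooth muscle actin gene Acta2 was 6544 and 1192 CPM in them, Tagln 2822 and 1138 CPM and the intermediate filament gene Vim 5279 and 2938 CPM, each above the high-side maxima of 1012, 732 and 2884 CPM. The astrocyte medians of these genes were 602, 408 and 2524 CPM. The endothelial and mural list, which holds Acta2 and Tagln, summed to 9366 and 2349 CPM in them (high-side maximum 1743 CPM). Of its other members, Flt1, Kdr and Rgs5 were at 0 in both cells. Acta2 and Tagln made up nearly all of both sums. Pdgfrb and Kcnj8 had log2 differences of 3.60 and 3.71 in the low sum of 97Q RGFP109 batch 1. They had 0.743 and 0 in that of 97Q vehicle batch 1. Each low sum pools 2 neurons, 97Q RGFP109 cells 2 and 4 and 97Q vehicle cells 2 and 7. These differences are therefore not values of the pair alone, and the list summed to 426 CPM in 97Q RGFP109 cell 2. The oligodendrocyte lineage genes Olig1 and Olig2 were 235 and 33.2 CPM in 97Q vehicle cell 7 and 294 and 95.7 CPM in 97Q RGFP109 cell 4. Clu, which astrocytes secrete, was 872 and 1044 CPM in them, within the high-side range of 0 to 5782 CPM. Cnp was 0 to 107 CPM over the 10, and the myelin gene Mbp was 657 CPM in 97Q vehicle cell 10, above the high-side maximum of 353 CPM.

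97Q RGFP109 cell 2 differed in another way. Mitochondrially encoded genes took 20.1% of its counts, and the mitochondrial ribosomal RNA mt-Rnr2 alone stood at 95418 CPM, against at most 61604 CPM on the high side. The noncoding RNA Snhg14 and Nktr were 1232 and 1008 CPM, above the high-side maxima of 941 and 686 CPM. They were among 1009 genes that lay above every high-Gad1 neuron in this cell. Its astrocyte sum was 991 CPM and its microglia and macrophage sum 5.66 CPM, both below the high-side medians of 1188 and 23.2 CPM. The genes of these 3 paragraphs outside the list members with the highest mean were chosen after their values were seen.

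Genes of progenitors and of young neurons were led by 25Q vehicle cell 10. The cyclin gene Ccnd2 was 4223 CPM in it (high-side maximum 1271) and 0.431 to 982 CPM in the other 9, and the progenitor filament gene Nes exceeded the high-side maximum of 327 CPM in it and in the pair rich in Vim, at 417, 330 and 429 CPM. The imprinted gene Nnat was 2150 CPM in 25Q vehicle cell 10 and at most 163 CPM in the others, against a high-side median of 101 CPM. Dcx, which marks young neurons, ran from 0 to 293 CPM around a high-side median of 107 CPM.  Genes of fibroblasts (Lox and Fn1) and of ependymal cells (Rarres2 and Ttr) reached at most 29.5, 264, 203 and 0 CPM, of which Fn1 in 97Q vehicle cell 7 lay above the high-side maximum of 197 CPM.

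**Figure D4:**
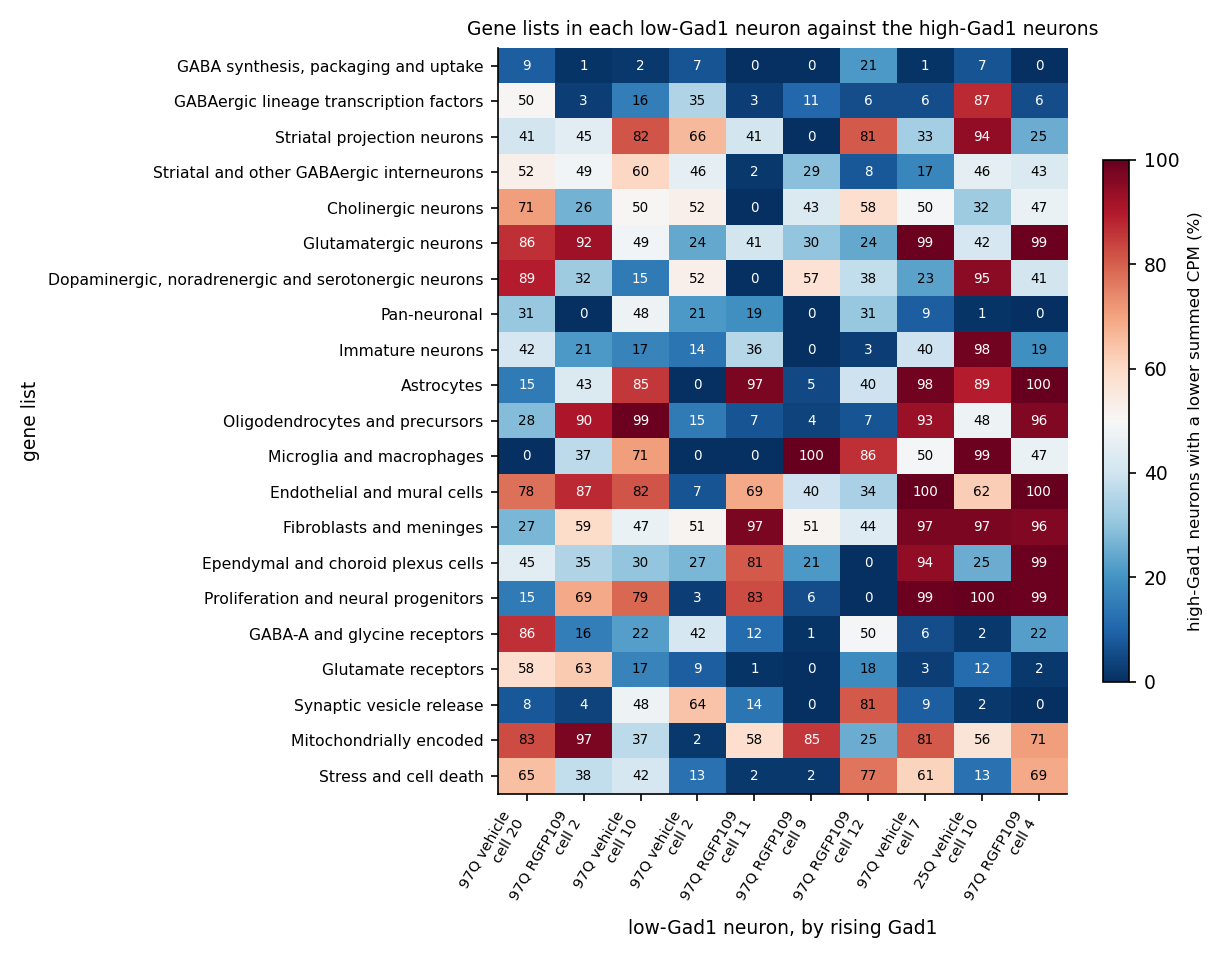
For each of the 10 low-Gad1 neurons (columns, by rising Gad1) and 21 gene lists (rows), the share of the 103 high-Gad1 neurons with a lower summed CPM, where 0 means below all of them and 100 above all. The columns differ widely, and the rows for GABA genes and pan-neuronal genes are those with no value above 50 (the GABA row includes Gad1, which chose the cells).

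The sides were then compared across all genes inside strata, a stratum being a group within a batch. Counts were summed over the low-Gad1 and over the high-Gad1 neurons of the 6 strata that held both, which gave 12 sums of 1 to 14 neurons. Of 14408 genes tested, 0 passed (0%) in the quasi-likelihood test of edgeR after Benjamini-Hochberg adjustment (smallest adjusted p = 0.614), with 511 at an unadjusted p under 0.05, 410 lower (2.85%) and 101 higher (0.701%) in low-Gad1 neurons. DESeq2 called 374 of 13290 genes (2.81%), 247 lower and 127 higher, and limma-voom called 7 of 14408 (0.0486%), 3 lower and 4 higher. The common coefficient of variation between sums was 1.36, with 5 residual degrees of freedom. The labels do not say that the cells came from separate cultures or animals, and the p-values measure only the spread between these sums.

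Gad2 had a log2 difference (low minus high) of -0.94 (SE 0.66), from a mean of 370 CPM over the 6 low sums and 657 CPM over the 6 high sums, and was lower in 5 of 6 strata (edgeR, Benjamini-Hochberg adjusted p = 1). Slc32a1 had -0.98 (SE 2.24), with 7.64 and 13.0 CPM, lower in 4 of 6 strata (edgeR, Benjamini-Hochberg adjusted p = 1). The log2 difference of Gad2 was -0.31 without the 3 neurons of few neuronal transcripts, -0.90 without 97Q RGFP109 cell 9 alone, and -0.09, -1.46 and -1.29 without batch 1, 2 and 3. It was -1.43 with sums by batch. Neither gene passed, and with these standard errors that does not show that the sides were alike.

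By list, the median log2 difference of all genes was -0.32, with 8546 of 14408 (59.3%) below 0, and list medians are read against this. Genes of GABA synthesis, packaging and uptake other than Gad1 had 7 of 10 below 0 (median -0.54), those of the GABAergic lineage 9 of 13 (median -1.32), those of projection neurons 20 of 26 (median -0.81) and pan-neuronal genes 18 of 24 (median -0.58). Synaptic vesicle release genes had 18 of 20 below 0 (median -0.85), GABA-A and glycine receptor genes 14 of 16 (median -0.92) and glutamate receptor genes 14 of 19 (median -0.65). Interneuron genes had the lowest median among lists of 10 or more genes tested, with 8 of 10 below 0 (median -2.74). Their median was below 0 in 4 of 6 strata, and their summed CPM per cell had medians of 101 and 143. The low sums held 1 to 3 neurons and the high sums 1 to 14. How this acts on genes that few cells express was not tested. Astrocyte genes had 17 of 20 above 0 (median 1.28) against 40.7% of all genes, and mitochondrially encoded genes 7 of 7 (median 0.43). Shorter lists had medians as high as that of astrocyte genes, with fibroblast genes at 2.38 (4 of 6 above 0), endothelial and mural genes at 1.84 (2 of 2), oligodendrocyte genes at 1.51 (4 of 7) and glutamatergic genes at 1.29 (4 of 6). In edgeR 0 members of any of the 21 lists passed, and no count of a list is a test.

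The medians rested on some strata. Those of GABA genes, of GABA-A and glycine receptor genes and of mitochondrially encoded genes were each below 0 in 3 of 6 strata. Those of vesicle release and of glutamate receptor genes were below 0 in 5 of 6. The pan-neuronal median was below 0 in 4 of 6 strata, from -1.97 in 97Q RGFP109 batch 1 to 0.36 in 97Q vehicle batch 2, and the astrocyte median was above 0 in 4 of 6, from -2.63 in 97Q vehicle batch 3 to 3.02 in 97Q RGFP109 batch 1. Without the neurons rich in astrocyte transcripts the astrocyte median was -3.80, that of the lineage factors -4.25 and that of the projection neuron genes -2.09, while the pan-neuronal median was -0.68. Those neurons were left out by the sum of the same astrocyte genes, so the fall of the astrocyte median follows in part from that choice. It left 5 low-Gad1 neurons. Without batch 1 the medians of GABA genes, projection neuron genes and pan-neuronal genes were 0.77, 0.49 and 0.06. Those of GABA-A and glycine receptor genes and of mitochondrially encoded genes were then 0.06 and -0.03. Interneuron, monoaminergic (2 genes tested), vesicle release and glutamate receptor medians were below 0 in 25 of 25 alternative settings. These settings share most of their cells and are not separate evidence. The vesicle release median reached -0.37 in 1 of them, against -0.32 for all genes in the main fit. Without 97Q RGFP109 cell 9 the pan-neuronal, GABA gene and vesicle release medians were -0.56, -0.68 and -0.87, and 0 genes passed by edgeR.

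Members of these lists showed the same spread. The release gene Syp, a vesicle membrane protein, ran from 5.61 to 2305 CPM in low-Gad1 neurons against a high-side median of 464 CPM (log2 difference -0.15, SE 0.60). The GABA-A receptor subunit gene Gabra2 ran from 7.17 to 713 CPM, against a high-side median of 522 CPM, and lay below that median in 8 of 10. The glutamate receptor genes Gria2 and Grm5 ran from 297 to 2157 CPM and from 2.60 to 393 CPM, against medians of 1824 and 391 CPM, and both lay below their medians in 9 of 10 low-Gad1 neurons. The mitochondrially encoded mt-Cytb and mt-Co1 ran from 2032 to 15370 CPM and from 2095 to 15942 CPM, around medians of 5793 and 6777 CPM. Hspa5, a chaperone gene of the stress list, ran from 129 to 1378 CPM (high-side median 732), and Cdkn1a from 0 to 208 CPM (high-side median 34.6).

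DESeq2 called 13 of 216 members of the lists (6.02%, against 2.81% of all genes), Vim and Tagln among them, and edgeR none of them. Among the lower ones were Reln, Penk, Lhx6, Ptpn5, Sv2c, Shank3 and Egr1, with log2 differences from -3.51 to -7.78, and the higher ones other than Vim and Tagln were Spon1 at 4.34, Fgfr3 at 5.95 and Col1a1 at 5.86 (DESeq2, Benjamini-Hochberg adjusted p from 4.13e-05 to 0.0384). Vim had 2.32 and Tagln 2.88 by DESeq2, and limma-voom also called Vim. Lists with 0 members called by DESeq2 included those of GABA synthesis, pan-neuronal genes, GABA-A receptors and mitochondrially encoded genes. Penk counts as lower in this fit although 25Q vehicle cell 10 had 5584 CPM.

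**Figure D5:**
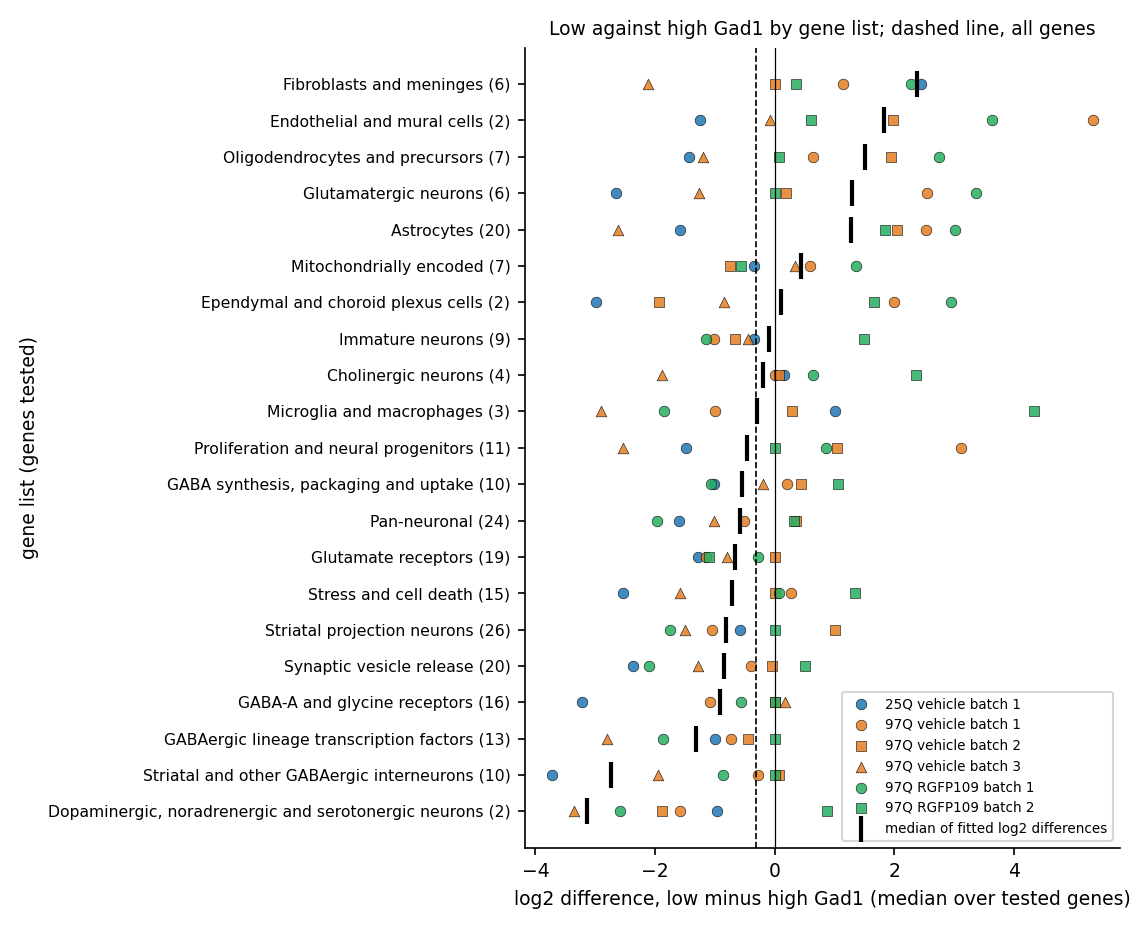
Log2 difference of low minus high Gad1 by gene list, with the median over the tested genes in each of the 6 strata (points, log2(CPM + 1), coloured by group and shaped by batch) and the median of the fitted differences (black bars). The dashed line marks the median of all genes at -0.32, and the points of 1 list mostly lie on both sides of 0.

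The genes outside the lists with the smallest p on the lower side were Acly, Bcat1, Zcchc12, Nts, Parm1, Pwp2, Hivep2, Trpc4, Ipo11 and Dgkb, none of which passed by edgeR with Benjamini-Hochberg adjustment (adjusted p from 0.614 to 1). Acly, which makes acetyl-CoA from citrate, had means of 84.9 CPM over the low and 532 CPM over the high sums (log2 difference -3.64, SE 0.76), lower in 6 of 6 strata. Bcat1, a transaminase of branched-chain amino acids that yields glutamate, had 4.93 and 158 CPM (-5.61, SE 1.20), and was at most 6.13 CPM in 9 low-Gad1 neurons and 91.3 CPM in 97Q RGFP109 cell 12. It was at 96.6 CPM in the median high-Gad1 neuron. Zcchc12 had 620 and 2307 CPM (-1.64, SE 0.36), and Trpc4, a cation channel gene, 0.213 and 50.4 CPM. The neuropeptide gene Nts, Parm1, Pwp2, the zinc finger gene Hivep2, the importin gene Ipo11 and the kinase gene Dgkb were each lower in 5 or 6 of 6 strata. Parm1 had a count in 1 low-Gad1 neuron and in 40 of 103 high-Gad1 neurons. DESeq2 called 9 of these 10 genes, all but Zcchc12.

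On the higher side these were Mt1, Fth1, Dbi, Ccnd1, Cybb, Mt3, mt-Rnr2, Gm44831, Rbl1 and Cd9, again with none past the threshold by edgeR and 6 called by DESeq2. The metallothionein gene Mt1 had 1248 and 288 CPM (log2 difference 2.09, SE 0.45), higher in 5 of 6 strata, and the ferritin gene Fth1 3096 and 1075 CPM (1.95, SE 0.46), higher in 6 of 6. Dbi, which binds acyl-CoA and the GABA-A receptor, had 1971 and 543 CPM (2.09, SE 0.49). Mt1, Mt3, Dbi and Cd9 have astrocyte medians of 3092, 4975, 5072 and 748 CPM. Without the neurons rich in astrocyte transcripts the log2 differences of Mt1, Mt3 and Ccnd1 were -1.46, -1.34 and -0.70. Cybb, a phagocyte oxidase gene, had 3057 CPM in 97Q RGFP109 cell 9 and 214 CPM in 25Q vehicle cell 10 and at most 3.30 CPM in the other 8.

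Across the 113 neurons, which differ in depth, batch and group, the genes whose CPM followed Gad1 most closely by Spearman rho were Cdh13 (0.72), Trpc4 (0.68), Pnoc (0.64), Ncald (0.64), Gad1-ps (0.62), Gm28221 (0.61), Dlx1 (0.61), Rbbp7 (0.61), Dlx1as (0.61) and Zic1 (0.59), among 11014 genes with a count in at least 50% of neurons (median rho 0.02). Gad1-ps is a pseudogene of Gad1 and its reads may come from Gad1. Dlx1as overlaps Dlx1, and Gm28221 overlaps Ncald, on the other strand. Gad2 ranked 22nd (rho 0.53) and Slc32a1 3683rd (0.09). The lowest were Zbtb20 (-0.55), Runx1t1 (-0.53), Foxp2 (-0.51), Olfm3 (-0.50) and Clvs2 (-0.50). These are descriptions without a test, and the neurons of the low side enter them as the lowest ranks.

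These genes were picked for following Gad1 over the same neurons, so their levels in low-Gad1 neurons follow from the choice and are given as values only. Trpc4 was at most 1.08 CPM in all 10 (high-side median 64.7), the nociceptin gene Pnoc at most 0.980 CPM (median 6.27) and the transcription factor gene Zic1 at most 0.905 CPM (median 3.47), though 8, 25 and 30 high-Gad1 neurons also had no count. The cadherin gene Cdh13 was 240 CPM in 97Q RGFP109 cell 11, 199 CPM in 97Q vehicle cell 10 and 116 CPM in 97Q RGFP109 cell 2, around or below the high-side median of 201 CPM. Zbtb20, a zinc finger repressor, was above the high-side median of 138 CPM in 9 of 10 low-Gad1 neurons, with 96.9 to 925 CPM, and had a median of 583 CPM in astrocytes. Foxp2 had a count in all 10 (0.845 to 276 CPM) and in 61 of 103 high-Gad1 neurons, and was at 0 in the median astrocyte.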

How the data were processed

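Per the labels' protocols, cells were harvested by patch pipette, SMARTer kits gave the cDNA and Nextera XT the libraries. The authors deposited a table of raw read counts per Ensembl gene, 1 column per cell; per the submitters' processing notes it was made with FastQC, Trimmomatic 0.36, STAR 2.5 and HTSeq 0.9.1 on GRCm38. For its settings, annotation and strand: not given in the sources used here. Of 53465 genes, 53274 were matched to a symbol, and positions come from GENCODE M21. From the deposited counts CPM was computed here over the whole column.

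The members and the 21 gene lists were chosen with earlier results of these data known. Named genes are Gad1, Gad2 and Slc32a1, the 2 members of each list with the highest mean CPM (no member passed the test), 10 genes outside the lists with the smallest p on each side, the class markers highest in each low-Gad1 neuron, and the extremes of Spearman rho; others are marked, and a few that the rule names are not reported here.

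Counts were summed per side within group and batch, scaled by TMM, and modelled in edgeR 4.0.16 (R 4.3.3; robust quasi-likelihood, stratum and side as terms, two-sided, Benjamini-Hochberg over all genes but Gad1, threshold 0.05). Genes passed filterByExpr and had a count in 20% of neurons or 50% of low-Gad1 neurons. Of 12 sums, the lone high sum of 97Q RGFP109 batch 2 and several low sums are 1 neuron each. DESeq2 1.42.0 and limma 3.58.1 were alternatives, with other thresholds, filters and left-out cells. The fit was tested on simulated data.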

Additional observations from a re-analysis of the deposited data

Results flagged for a closer look

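A total of 48 groups of values other than Gad1 were checked for a single cell far from the rest, and chance flags about 1 in 20 of such groups. Among the 10 low-Gad1 neurons, 25Q vehicle cell 10 lay far above the others in the sum of genes of immature neurons, at 2978 CPM. In the same way 97Q RGFP109 cell 9 lay far below the others in the sum of synaptic vesicle release genes, at 416 CPM.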

How the results depend on the processing

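The count of genes past the threshold was 0 with edgeR and 0 with RLE size factors, with 50 or 200 CPM as the limit for Gad1 (9 and 14 low-Gad1 neurons), without empty vector neurons, with thinned counts and, chosen after seeing the data, without the 3 neurons of few neuronal transcripts. It was 374 with DESeq2, 7 with limma-voom, 18 without a filter on low counts and 1 without neurons rich in astrocyte transcripts, Snhg11, named after its value was seen. It was 0 with no replicate block and 0 with sums by batch and the batch as the replicate block, where pairing rests on the labelled group and batch and cell numbers pair nothing. Leaving out 1 batch or 1 low-Gad1 neuron at a time gave 0 to 7, the 7 without batch 1. The cause of these differences was not tested.

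The number of low-Gad1 neurons was 10 with thinned counts or without mitochondrially encoded genes in the total, 9 with TMM library sizes and 5 without neurons rich in astrocyte transcripts. Without those neurons the log2 difference was -1.46 for Mt1, -0.70 for Ccnd1 and -1.34 for Mt3. Leaving out 1 batch or neuron moved that of Slc32a1 from -2.95 to 0.77. With 12 sums and wide spread between cells, modest differences were not detectable, and large ones could be missed too. In simulated sums, 3 of 200 genes given a large change passed the threshold.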
